A study of Mus musculus with 16 samples.

Results

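The interferon response genes described here are 37 mouse genes chosen by name as known targets or mediators of interferon signalling. No measured value entered the rule, but earlier results of these data were known when the genes were chosen. All 37 were found among the 22339 named genes on the arrays, and each was read from its brightest probe. They were measured in lymph node T lymphocytes that carry the OT-1 T cell receptor transgene, which recognises the ovalbumin peptide SIINFEKL on major histocompatibility complex class I. The Lck-/- cells were OT-1het, Rag-/- and Lck-/-, and the WT cells were OT-1het and Rag-/-, so the WT cells also lack Rag and carry the transgene. The title of the series adds the word OFF to Lck-/-, which the labels do not explain, and the labels do not say which part of Lck was changed. Both genotypes were cultured with 100 nM SIINFEKL for 24 h and given 100 µg/ml cycloheximide for 10 min before harvest, so there were no unstimulated and no interferon-treated cells. Lysates were run through 10% to 50% sucrose, in which mRNAs with more ribosomes sink further. Fractions 6 to 10 were pooled as polysomal RNA and fractions 1 to 5 as sub-polysomal RNA. Each array compared the polysomal and the sub-polysomal pool of 1 extract in 2 colours. The series holds 4 Lck-/- and 4 WT extracts, called biological replicates, each on 2 arrays with the dyes exchanged. The labels do not say whether the extracts came from separate animals, so p-values measure the spread between these extracts as labelled.

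Interferons are cytokines that cells release when they sense viral nucleic acid or, for interferon gamma, when T cells and natural killer cells are activated. Type I interferons act through a Janus kinase pathway that brings STAT2 and IRF9 to interferon-stimulated response elements, while interferon gamma acts at gamma-activated sites and through IRF1. The induced proteins block viral replication, tag proteins with ISG15, attack the vacuoles of intracellular pathogens and limit the signal itself. Lck, a Src-family kinase, phosphorylates the T cell receptor complex in the first step of its signalling.

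Several facts of the arrays bear on every value below. Between 14608 and 50775 probes per array were well above background in the polysomal channel and between 12531 and 30969 in the sub-polysomal channel, and no member was saturated. The highest count, 50775, belonged to the polysomal channel of 1 array of Lck-/- replicate 1. The dye-swapped arrays of 6 extracts deviated from their genotype in the same way (r of 0.46 to 0.84 over genes), but those of WT replicates 1 and 2 did not (r of -0.83 and -0.81). Each of these 2 extracts instead matched the other one's dye swap (r of 0.87 and 0.94), so results are also given with these dye swaps exchanged and without these extracts. If the labels were exchanged, the main fit averaged arrays of different extracts here. Its p-values can then understate the spread between WT extracts. With the dye swaps exchanged, 6.79% of all genes had an adjusted p below 0.05 by limma for the polysomal level, against 15.2% as labelled. The Lck probe read 14.26, 14.64, 14.11 and 14.19 in the Lck-/- extracts, against 15.26, 15.42, 14.78 and 15.39 in the WT extracts on the log2 scale of polysomal level. Its difference, Lck-/- minus WT, was -0.91 ± 0.19 (adjusted p = 0.0106) in the polysomal pool and -0.79 ± 0.12 (adjusted p = 0.00277) in the sub-polysomal pool. The groups did not overlap, but Lck RNA was still well above background on all 8 Lck-/- arrays, and where the probe lies relative to the changed part of the gene is not given. The 9 T cell markers were well above background in both pools on all 16 arrays. Of the markers of other cells, Cd79b of B cells, Csf1r, H2-Ab1 and Itgam of myeloid and dendritic cells and Eomes of natural killer cells were above background in both pools on all 16 arrays, and Cd74 on 7 or 8 of 8 arrays of a genotype. Siglech of plasmacytoid dendritic cells was also above background in both pools on all 16 arrays. Its probe shares stretches of 20 bases with probes of 3 other gene names, and the Itgam probe with those of 72. Among the other markers, Pax5, Lyz2, Adgre1, Col1a1 and Cdh5 were above background on at most 2 of 8 arrays of a genotype, and the stromal gene Pecam1 on 4 to 6 of 8. Further genes of the same lists reached more arrays in 1 genotype and pool. These were up to 4 of 8 for Itgax, Cd14, Flt3 and Pdpn, 5 for Col1a2, 7 for H2-Aa and 8 for Ly6d. In these bulk samples, fewer cells of a type and less RNA per cell cannot be told apart.

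Detection differed among the members. Of the 37 genes, 27 were tested for the polysomal level and 29 for the sub-polysomal level, which needed a channel well above background on at least 6 of 8 arrays of at least 1 genotype. The polysomal over sub-polysomal ratio was tested for 19, which needed 6 of 8 arrays in both genotypes with the 2 channels well above background. The 8 members tested in none were Irf7, a transcription factor that amplifies type I interferon production, Mx1 and Mx2, dynamin-like GTPases that block viruses, Oas2, Oas3 and Oasl2 of the oligoadenylate synthetase family, Rsad2, which makes an antiviral nucleotide, and Ifi44. They were above background on 2 to 5 of 8 arrays in Lck-/- and 0 to 4 of 8 arrays in WT, and no fold change is given for them. In the sub-polysomal channel 19 of the 37 members were above background on a larger share of arrays in Lck-/- than in WT, 0 on a larger share in WT, and 18 on an equal share. Among all 22339 genes these shares were 29.2% larger in Lck-/- and 6.60% larger in WT. In the polysomal channel 15 members had the larger share in Lck-/- and 3 in WT, against 35.7% and 12% of all genes. Without Lck-/- replicate 1, which held the array with 50775 probes, the counts of members were 17 and 1 in the sub-polysomal channel and 15 and 3 in the polysomal channel, against 24.0% and 11.4% and against 8.78% and 17.7% of all genes. This is a description of detection, with no test.

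**Figure D1:**
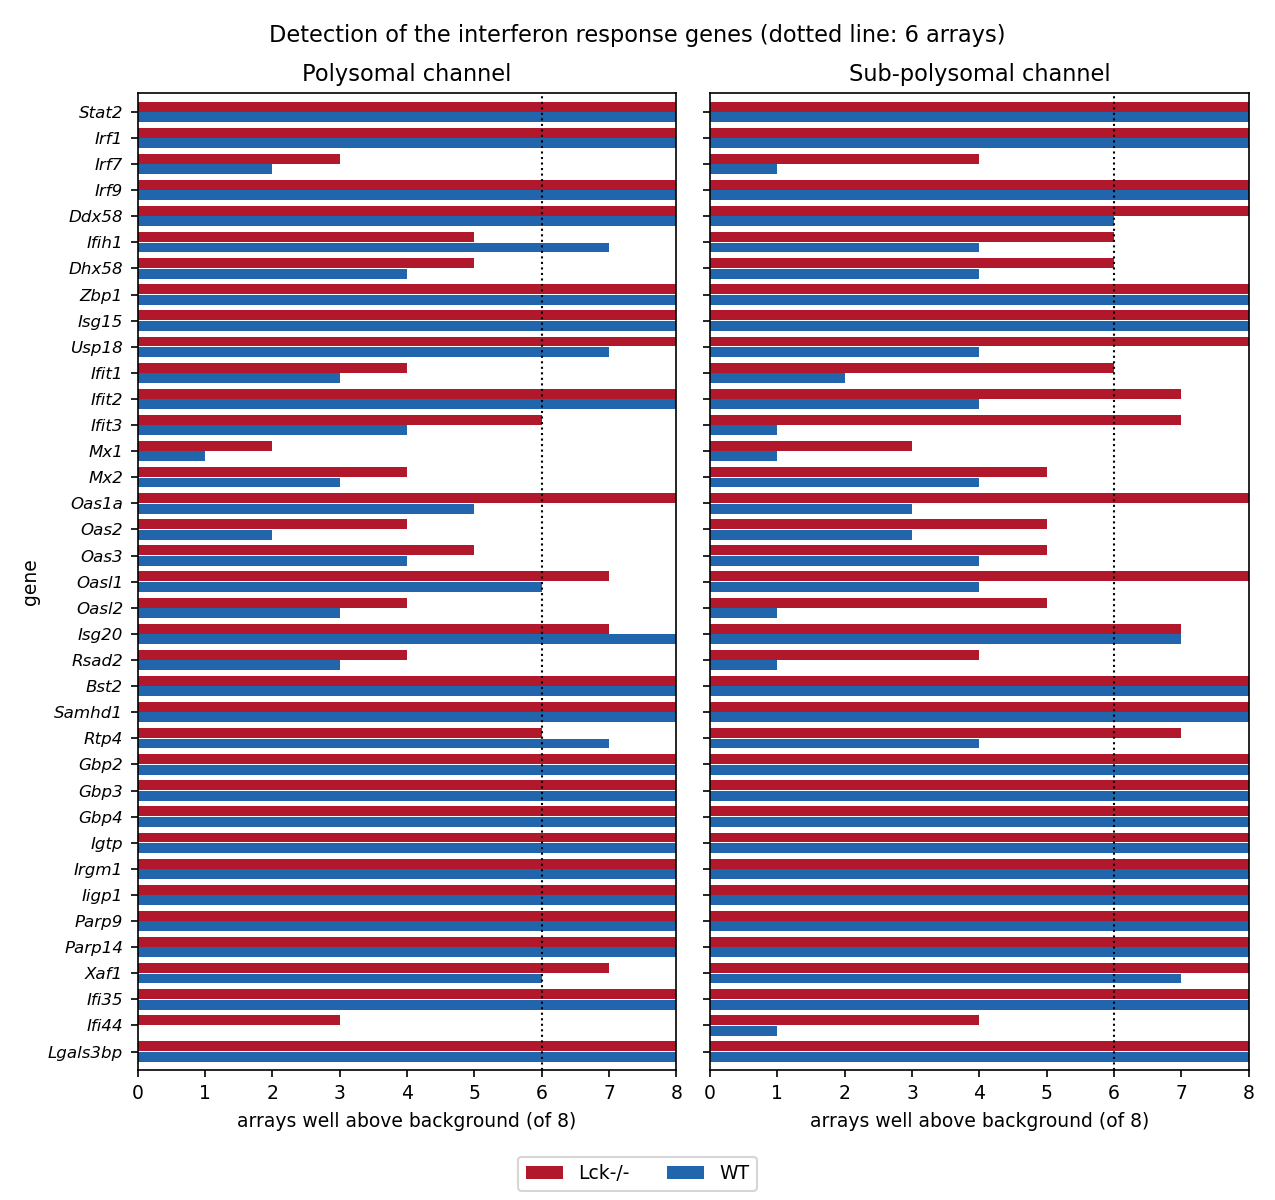
Number of arrays, of 8 in each genotype, on which the probe of each of the 37 interferon response genes was well above background, in the polysomal channel (left) and the sub-polysomal channel (right), with Lck-/- in red above WT in blue and the dotted line at the 6 arrays needed for testing. Sub-polysomal bars of Lck-/- are longer than those of WT for 19 members and shorter for 0.

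The first question was whether the amount of each mRNA in either pool differed between genotypes. Levels are log2 intensities after normalization, differences are Lck-/- minus WT with ± SE from limma, and adjusted p-values are over all genes tested in a comparison. The offset of 50 added before the log understates the change of dim genes. In the polysomal pool 3 of 27 members tested passed an adjusted p of 0.05, with 15.2% of all 10292 genes tested doing so. All 3 were higher in Lck-/-, where 5.98% of all genes were higher and 9.24% lower. In the sub-polysomal pool 6 of 29 members passed, against 20.3% of 9705 genes, and all 6 were higher in Lck-/-, where 9.49% of all genes were higher and 10.8% lower. The shares of members called were thus near the background, and the direction was upward in each call. The median difference was 0.22 over the 27 members and 0.00046 over all genes in the polysomal pool, and 0.20 over the 29 members and 0.05 over all genes in the sub-polysomal pool. Scaling moves these levels: after median centring in place of loess the median of all genes was -0.31 in the polysomal and 0.37 in the sub-polysomal pool, and that of the members -0.16 and 0.50. Then 2 members were called higher and 1 lower in the polysomal pool, against 0.496% and 20.9% of all genes. In the sub-polysomal pool 15 were called higher and 0 lower, against 36.8% and 3.36% of all genes. Members had groups that did not overlap in 2 of 27 cases in the polysomal pool (23.0% of all genes) and in 5 of 29 in the sub-polysomal pool (26.1% of all genes). Of the members tested, 2 passed the polysomal filter and 9 passed the sub-polysomal filter through Lck-/- alone. A gene that enters a test this way had to be higher in that genotype. Among the members called, this holds for Ifit3 in both pools and for Usp18 and Oasl1 in the sub-polysomal pool. Those called that passed the filter in both genotypes were Bst2 and Oasl1 in the polysomal pool and Bst2, Gbp4 and Igtp in the sub-polysomal pool.

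**Figure D2:**
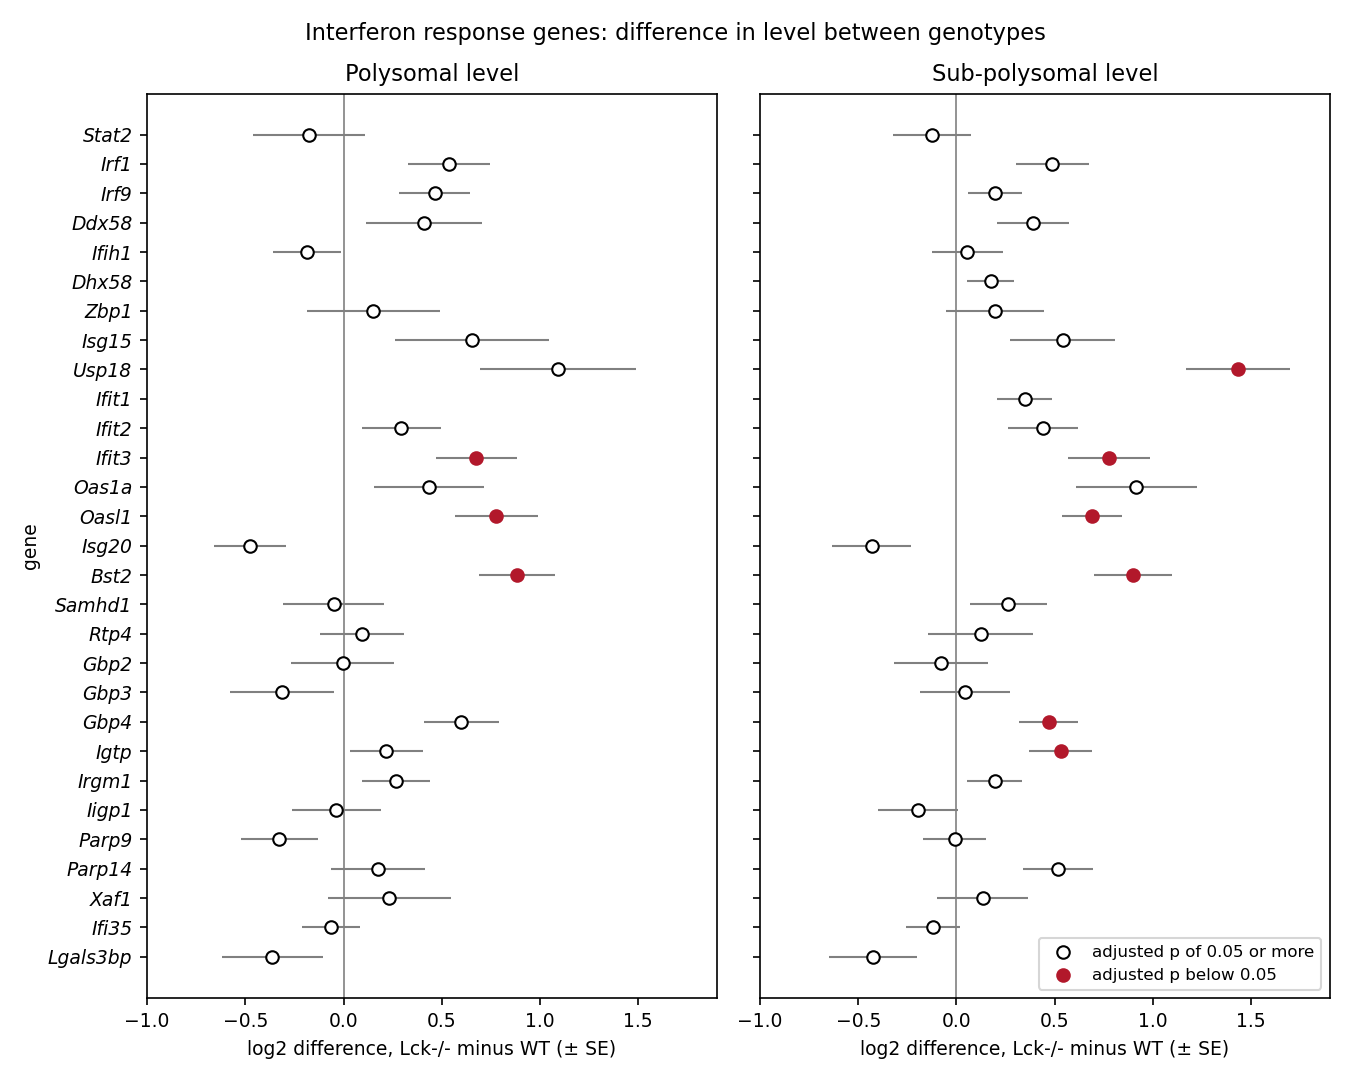
Difference in log2 level, Lck-/- minus WT, with its standard error, for the 29 interferon response genes tested in at least 1 pool (left, polysomal; right, sub-polysomal). Filled points have an adjusted p below 0.05: 3 in the polysomal pool and 6 in the sub-polysomal pool, all to the right of 0.

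The probes of the 6 members called lie, in mm9 and per the file headers, at chr8:74058603-74058662 (- strand) for Bst2, chr6:121220874-121220933 (+ strand) for Usp18, chr5:115387861-115387920 (+ strand) for Oasl1, chr19:34663105-34663164 (+ strand) for Ifit3, chr5:105544852-105544911 (- strand) for Gbp4 and chr11:58020927-58020986 (+ strand) for Igtp. No probe of another gene name on the array shares 20 bases with them. Which exon or UTR they fall in was not analysed here.

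Bst2, or tetherin, holds budding virus particles on the cell surface. It was well above background in both pools on all 16 arrays. Its polysomal level was 13.59, 13.66, 13.55 and 13.61 in the Lck-/- extracts, against 12.14, 12.91, 12.80 and 13.03 in the WT extracts. Its sub-polysomal level was 13.25, 13.27, 13.19 and 13.37 in the Lck-/- extracts, against 11.71, 12.69, 12.45 and 12.63 in the WT extracts. All 4 Lck-/- extracts lay above all 4 WT extracts in both pools, the Lck-/- extracts lay close together, and WT replicate 1 was the lowest extract in both pools. The difference was 0.89 ± 0.19, 1.85-fold (adjusted p = 0.0129) in the polysomal pool and 0.90 ± 0.20, 1.86-fold (adjusted p = 0.0115) in the sub-polysomal pool. It was 1.21 polysomal and 1.04 sub-polysomal on slide 2, and 0.56 and 0.75 on slide 1. With the dye swaps of WT replicates 1 and 2 exchanged the adjusted p was 0.0796 in the polysomal pool and 0.0169 in the sub-polysomal pool. Without these 2 extracts the differences were 0.69 (adjusted p = 0.0844) and 0.73 (adjusted p = 0.0279).

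Usp18 removes ISG15 from proteins and blocks signalling at the type I interferon receptor. Its sub-polysomal level was 8.06, 9.17, 8.61 and 9.44 in the Lck-/- extracts, against 7.11, 7.54, 7.62 and 7.28 in the WT extracts, and it was above background on 8 of 8 Lck-/- and 4 of 8 WT arrays. The lowest Lck-/- extract, replicate 1, was above the highest WT extract. The difference was 1.43 ± 0.26, 2.7-fold (adjusted p = 0.00521), higher in 4 of 4 Lck-/- extracts, with a value of 1.19 on slide 1 and 1.67 on slide 2. Since Usp18 entered this test through Lck-/- alone, its direction was fixed by the filter, and how often the call recurred is not given as support. The polysomal level was 7.34, 9.34, 8.71 and 9.46 in the Lck-/- extracts, against 7.15, 8.04, 7.87 and 7.42 in the WT extracts. Here Lck-/- replicate 1 lay within the WT range, and the difference was 1.09 ± 0.40 (adjusted p = 0.0825). Without Lck-/- replicate 1 it was 1.55 (adjusted p = 0.00496). Isg15, the ubiquitin-like protein that Usp18 removes, had polysomal levels of 10.41, 9.97, 11.13 and 11.26 in the Lck-/- extracts, against 10.12, 9.83, 11.11 and 9.10 in the WT extracts. Its sub-polysomal levels were 10.24, 10.29, 10.96 and 11.01 in the Lck-/- extracts, against 10.30, 10.26, 10.46 and 9.32 in the WT extracts. The groups overlapped in both pools, with the highest polysomal WT level in replicate 3 and the lowest in replicate 4. The differences were 0.65 ± 0.39 (adjusted p = 0.273) and 0.54 ± 0.27 (adjusted p = 0.163). The Isg15 probe shares a stretch of 20 bases with a probe for Gm9706, so its values may hold both transcripts.

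Among the antiviral effectors, Oasl1 and Ifit3 were higher in Lck-/- in both pools. Oasl1 is a catalytically inactive relative of the oligoadenylate synthetases that in mice represses translation of Irf7. Its polysomal level was 8.63, 7.59, 7.88 and 7.80 in the Lck-/- extracts, against 7.18, 7.11, 7.33 and 7.17 in the WT extracts. Its sub-polysomal level was 8.19, 7.86, 8.17 and 8.29 in the Lck-/- extracts, against 7.55, 7.60, 7.51 and 7.11 in the WT extracts. The groups did not overlap in either pool, and Lck-/- replicate 1 was well above the other 3 in the polysomal pool. The differences were 0.78 ± 0.21, 1.71-fold (adjusted p = 0.03) and 0.69 ± 0.15, 1.61-fold (adjusted p = 0.0115). In the sub-polysomal pool Oasl1 entered the test through Lck-/- alone. Its direction there was fixed by the filter, and its further sub-polysomal values are not given as support. The polysomal call held in 2 of the 8 fits that left out an extract, with an adjusted p of up to 0.0784. With the dye swaps of WT replicates 1 and 2 exchanged the adjusted p was 0.0549 in the polysomal pool and 0.0251 in the sub-polysomal pool. On slides 1 and 2 the polysomal difference was 1.01 and 0.54, and the sub-polysomal difference 0.85 and 0.53.

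Ifit3 belongs to a family of proteins that bind viral RNA and hold back its translation. Its polysomal level was 6.80, 7.69, 7.74 and 7.27 in the Lck-/- extracts, against 6.69, 6.85, 6.65 and 6.60 in the WT extracts. Its sub-polysomal level was 7.01, 7.88, 7.78 and 7.06 in the Lck-/- extracts, against 6.84, 6.73, 6.51 and 6.54 in the WT extracts. Lck-/- replicate 1 fell inside the WT range in the polysomal pool, and the groups were separate in the sub-polysomal pool, where the WT probe was above background on 1 of 8 arrays. The differences were 0.68 ± 0.21, 1.6-fold (adjusted p = 0.0471) and 0.77 ± 0.21, 1.71-fold (adjusted p = 0.0257). Since Ifit3 entered both tests through Lck-/- alone, its direction was fixed by the filter, and the values that follow are not given as support. The calls held in 1 and 3 of the 8 fits that left out an extract, with adjusted p of up to 0.124 and 0.0823. On slides 1 and 2 the differences were 0.58 and 0.78 in the polysomal pool and 0.67 and 0.88 in the sub-polysomal pool. Oas1a, which makes the oligoadenylates that activate RNase L, had sub-polysomal levels of 7.59, 8.48, 8.29 and 8.93 in the Lck-/- extracts, against 7.02, 7.72, 8.03 and 6.87 in the WT extracts. The groups overlapped and the difference missed the threshold at 0.91 ± 0.31 (adjusted p = 0.0571), and its polysomal difference was 0.44 ± 0.28 (adjusted p = 0.308). Its 2 probes gave sub-polysomal differences of 0.91 and 0.12. The sub-polysomal differences of the family members Ifit1 and Ifit2 were 0.35 ± 0.14 (adjusted p = 0.099) and 0.44 ± 0.18 (adjusted p = 0.097). Isg20, an exonuclease that degrades viral RNA, was the one effector with a negative difference in both pools near the threshold, at -0.47 ± 0.18 (adjusted p = 0.0981) and -0.43 ± 0.20 (adjusted p = 0.144). Samhd1, which depletes nucleotides, and Rtp4 had polysomal differences of -0.05 ± 0.26 (adjusted p = 0.919) and 0.09 ± 0.21 (adjusted p = 0.8).

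The GTPases disrupt membranes around intracellular pathogens and are strongly induced by interferon gamma. Of 6 measured, Gbp4 and Igtp were higher in Lck-/- in the sub-polysomal pool and none passed in the polysomal pool. Gbp4, a guanylate-binding protein, had a sub-polysomal level of 11.75, 12.13, 11.97 and 12.08 in the Lck-/- extracts, against 11.55, 11.42, 11.29 and 11.79 in the WT extracts. Its polysomal level was 11.06, 11.93, 11.38 and 11.66 in the Lck-/- extracts, against 10.93, 10.81, 10.80 and 11.09 in the WT extracts. Lck-/- replicate 1 lay just below WT replicate 4 in both pools, and the other 3 Lck-/- extracts lay above all WT extracts. The differences were 0.47 ± 0.15, 1.38-fold (adjusted p = 0.0464) in the sub-polysomal pool and 0.60 ± 0.19 (adjusted p = 0.0541) in the polysomal pool. The sub-polysomal value was 0.51 on slide 1 and 0.43 on slide 2. Igtp, an immunity-related GTPase, had a sub-polysomal level of 13.55, 14.26, 13.97 and 14.06 in the Lck-/- extracts, against 13.44, 13.42, 13.30 and 13.57 in the WT extracts. Its polysomal level was 13.98, 14.76, 14.22 and 14.37 in the Lck-/- extracts, against 13.99, 14.14, 13.97 and 14.36 in the WT extracts. Again Lck-/- replicate 1 overlapped the WT extracts in the sub-polysomal pool while the other 3 did not. The sub-polysomal difference was 0.53 ± 0.16, 1.44-fold (adjusted p = 0.0393), with 0.43 on slide 1 and 0.63 on slide 2, and the polysomal difference was 0.22 ± 0.19 (adjusted p = 0.45). Both the Gbp4 and the Igtp calls held in 2 of the 8 fits that left out an extract, those without Lck-/- replicate 1 and without WT replicate 4. They were lost, for example, when WT replicate 2 was left out (adjusted p = 0.114 and 0.0856) and when the dye swaps of WT replicates 1 and 2 were exchanged (adjusted p = 0.0825 and 0.0717). Irgm1, a regulator of the immunity-related GTPases, had differences of 0.27 ± 0.17 (adjusted p = 0.319) in the polysomal and 0.19 ± 0.14 (adjusted p = 0.329) in the sub-polysomal pool. Gbp2, Gbp3 and Iigp1 had polysomal differences with adjusted p between 0.448 and 0.995.

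**Figure D3:**
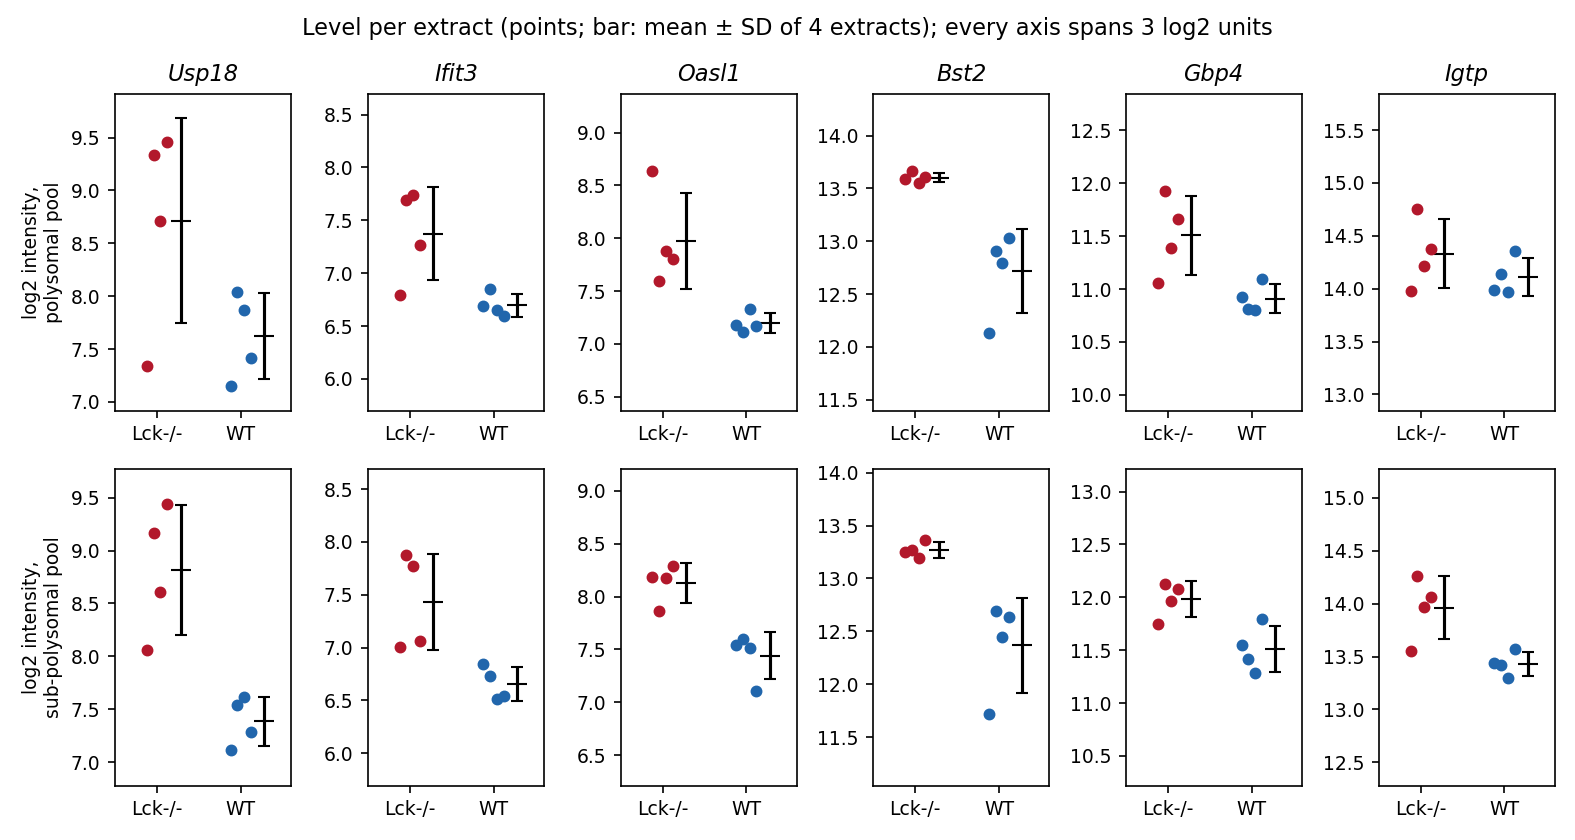
Log2 level per extract of the 6 interferon response genes called in at least 1 pool, in the polysomal (upper row) and sub-polysomal pool (lower row), with 4 Lck-/- extracts (red) left of 4 WT extracts (blue) and the mean ± SD beside them. Bst2 and Oasl1 show no overlap in either pool, and Usp18 and Ifit3 show none in the sub-polysomal pool.

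No transcription factor, sensor or ADP-ribosyltransferase passed the threshold in either pool. Irf1, the factor through which interferon gamma acts, had polysomal levels of 13.97, 14.73, 14.34 and 14.61 in the Lck-/- extracts, against 14.07, 14.07, 13.41 and 13.94 in the WT extracts. Its sub-polysomal levels were 14.35, 14.43, 14.61 and 14.81 in the Lck-/- extracts, against 14.38, 14.18, 13.57 and 14.12 in the WT extracts. In both pools 3 Lck-/- extracts lay above all WT extracts, and replicate 1 lay among the WT extracts. The differences were 0.54 ± 0.21 (adjusted p = 0.102) and 0.49 ± 0.18 (adjusted p = 0.0803). Irf9 differed by 0.46 ± 0.18 (adjusted p = 0.104) and 0.20 ± 0.14 (adjusted p = 0.313), and its partner Stat2 by -0.18 ± 0.29 (adjusted p = 0.708) and -0.12 ± 0.20 (adjusted p = 0.679). Among the sensors of foreign nucleic acid, Ddx58, which encodes RIG-I, had polysomal levels of 7.21, 8.82, 8.51 and 8.56 in the Lck-/- extracts, against 7.87, 8.0, 7.67 and 7.92 in the WT extracts. Lck-/- replicate 1 was the lowest of all 8 extracts and the other 3 the highest. The difference was 0.41 ± 0.29 (adjusted p = 0.368), and 0.76 (adjusted p = 0.00717) without that extract. Zbp1, a sensor of Z-form nucleic acid, had polysomal levels of 9.16, 9.44, 10.46 and 10.23 in the Lck-/- extracts, against 9.78, 9.98, 10.15 and 8.77 in the WT extracts, with overlapping groups and a difference of 0.15 ± 0.34 (adjusted p = 0.793). A second, dimmer Zbp1 probe gave 0.71 in the polysomal and 0.79 in the sub-polysomal pool, so its probes did not give the same size. The sub-polysomal differences of Ifih1 (MDA5) and Dhx58 (LGP2) had adjusted p of 0.847 and 0.317.

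Parp14, an ADP-ribosyltransferase, had sub-polysomal levels of 9.49, 10.24, 9.97 and 10.07 in the Lck-/- extracts, against 9.12, 9.46, 9.60 and 9.53 in the WT extracts. Its groups overlapped through Lck-/- replicate 1 alone, and the difference was 0.52 ± 0.18 (adjusted p = 0.062). Parp9, its relative and a binding partner of Dtx3l, differed by -0.33 ± 0.20 (adjusted p = 0.28) in the polysomal pool and -0.01 ± 0.16 (adjusted p = 0.972) in the sub-polysomal pool. Of the remaining members, Lgals3bp, a secreted glycoprotein, had polysomal levels of 9.63, 11.06, 10.15 and 10.17 in the Lck-/- extracts, against 10.65, 10.65, 10.36 and 10.80 in the WT extracts. The Lck-/- extracts other than replicate 2 lay below all WT extracts. The difference was -0.36 ± 0.26 (adjusted p = 0.361) in the polysomal and -0.42 ± 0.22 (adjusted p = 0.187) in the sub-polysomal pool, and without Lck-/- replicate 2 it was -0.63 (adjusted p = 0.0458) and -0.67 (adjusted p = 0.0134). A second, dimmer Lgals3bp probe gave -0.81 in the polysomal and -0.48 in the sub-polysomal pool. Its difference in polysomal over sub-polysomal ratio was -0.33, against 0.06 for the probe used. Ifi35 and Xaf1, a proapoptotic factor, had polysomal differences of -0.06 ± 0.15 (adjusted p = 0.8) and 0.23 ± 0.31 (adjusted p = 0.647).

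One extract decided much of the count. Without Lck-/- replicate 1, 10 of 27 members passed in the polysomal pool and 10 of 29 in the sub-polysomal pool, all higher in Lck-/-, where 24.4% of all genes passed in the polysomal pool (13.1% higher) and 20.2% in the sub-polysomal pool (9.76% higher). In the polysomal pool Irf1, Irf9, Ddx58, Usp18, Ifit2, Gbp4 and Parp14 then joined Bst2, Oasl1 and Ifit3. In the sub-polysomal pool Ddx58, Ifit2, Oas1a and Parp14 joined the other 6. Of these, Usp18, Ifit3, Oasl1, Ifit2 and Oas1a in the sub-polysomal pool and Ifit3 in the polysomal pool had passed the filter through Lck-/- alone. Their direction in those tests was fixed by the filter. Without Lck-/- replicate 1, 1352 genes of all those tested were higher and 1156 lower in the polysomal pool, against 615 and 951 with it. Leaving out Lck-/- replicate 3, Lck-/- replicate 4 or any 1 WT extract left 1 polysomal member, Bst2 in each case. Of all genes, 6.9% to 10.1% passed in these fits. Without Lck-/- replicate 2 the polysomal calls were Bst2 and Oasl1, higher, and Lgals3bp, lower, and 14.7% of all genes passed. With the dye swaps of WT replicates 1 and 2 exchanged, 0 members passed in the polysomal pool, where 8 of 27 had an unadjusted p below 0.05, as had 25.8% of all genes, and 4 of 29 passed in the sub-polysomal pool, as did 11.4% of all genes. Without these 2 extracts the counts were 0, with 6 of 27 and 22.9% of all genes at an unadjusted p below 0.05, and 3 of 29, where 11.4% of all genes passed.

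Promoter sequence was examined because members that move together are known to share response elements. RefSeq windows of GRCm38.p6, from 250 bases before to 50 bases after each start, were matched by symbol for 26 of the 37 members. The core GAAANNGAA of the interferon-stimulated response element, on either strand, was found in 15 of these 26 genes (57.7%) and in 9.76% of all 27025 genes with a window. The core TTCNNNGAA of the gamma-activated site, which reads the same on both strands, was found in 8 of 26 (30.8%) and in 9.55% of all genes. The 2 cores share bases and can overlap. A match is a description and not a binding site. Stretches of 90 bases are shown for the 3 called members with an element before their start, Bst2, Ifit3 and Igtp, and for the 2 brightest members with one that were not called, Gbp2 and Irgm1, since the core stood in both kinds. They lie at chr8:71537548-71537637 (- strand) for Bst2, chr19:34583386-34583475 (+ strand) for Ifit3, chr11:58199466-58199555 (+ strand) for Igtp, chr3:142620564-142620653 (+ strand) for Gbp2 and chr11:48871421-48871510 (- strand) for Irgm1, with each sequence 5′ to 3′ along its gene and capitals marking the bases of GAAANNGAA on either strand.
Bst2: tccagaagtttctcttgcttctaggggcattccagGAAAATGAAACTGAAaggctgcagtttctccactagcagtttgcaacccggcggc
Ifit3: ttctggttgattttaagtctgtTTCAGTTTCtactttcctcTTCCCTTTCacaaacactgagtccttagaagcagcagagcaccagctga
Igtp: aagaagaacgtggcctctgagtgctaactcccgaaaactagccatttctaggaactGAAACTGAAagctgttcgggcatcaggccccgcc
Gbp2: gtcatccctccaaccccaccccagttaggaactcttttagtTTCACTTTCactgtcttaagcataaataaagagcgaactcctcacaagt
Irgm1: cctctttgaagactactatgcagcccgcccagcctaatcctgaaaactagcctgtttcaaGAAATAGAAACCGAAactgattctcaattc

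Bst2, Ifit3 and Irgm1 held 2 matches each in these stretches, overlapping in Bst2 and Irgm1, and Igtp and Gbp2 held 1. The match nearest the start began 124 bases before it in Bst2, 102 in Ifit3, 34 in Igtp, 58 in Gbp2 and 24 in Irgm1. Usp18 and Gbp4 had no window to examine. Oasl1 had one without either core.

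The second question was whether the members' mRNAs were distributed differently between the polysomal and sub-polysomal pools in the 2 genotypes. The ratio is log2 polysomal over sub-polysomal after loess, so 0 is the typical mRNA of an array and not equal amounts. None of the 19 members tested passed for a difference in this ratio between genotypes by limma, with 3.87% of all 8265 genes doing so, 2.82% higher and 1.05% lower in Lck-/-. At an unadjusted p below 0.05, 4 of 19 passed, as did 20.8% of all genes. The median difference was 0.02, against -0.04 over all genes. These 4 members also had groups that did not overlap, as had 14.5% of all genes. Irf9 had ratios of -0.72, -0.50, -0.74 and -0.73 in the Lck-/- extracts, against -0.81, -0.88, -1.08 and -0.99 in the WT extracts, and Igtp had ratios of 0.42, 0.50, 0.25 and 0.31 in the Lck-/- extracts, against 0.55, 0.71, 0.68 and 0.79 in the WT extracts. Irf9 was closer to 0 in every Lck-/- extract, and Igtp was lower in every Lck-/- extract. The differences were 0.27 ± 0.12 (adjusted p = 0.234) for Irf9 and -0.31 ± 0.12 (adjusted p = 0.169) for Igtp. Parp9 had ratios of -0.44, -0.32, -0.28 and -0.21 in the Lck-/- extracts, against 0.12, 0.09, -0.05 and -0.13 in the WT extracts. Parp14 had ratios of -0.20, 0.29, 0.22 and 0.24 in the Lck-/- extracts, against 0.60, 0.60, 0.35 and 0.35 in the WT extracts. Both were lower in all 4 Lck-/- extracts. Their differences were -0.32 ± 0.12 (adjusted p = 0.166) and -0.34 ± 0.14 (adjusted p = 0.212). With the dye swaps of WT replicates 1 and 2 exchanged, 0 of 19 members had an unadjusted p below 0.05, as had 9.09% of all genes. Of Bst2, Oasl1 and Ifit3, called by level in both pools, Bst2 alone was tested for the ratio, with a difference of -0.01 ± 0.11 (adjusted p = 0.964). Gbp4, called in the sub-polysomal pool, had one of 0.13 ± 0.13 (adjusted p = 0.62).

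The sign of the ratio difference depends on how the arrays are scaled. After median centring in place of loess, 12 of 19 members and 56.3% of all genes were called lower in Lck-/-, with medians of -0.77 and -0.78. Without normalization 16 of 19 members and 71.9% of all genes were lower, with medians of -0.77 and -0.78. In the ratios of the authors' deposited table, 18 of 19 were lower, with medians of -1.20 and -1.15, and 7427 of 8253 genes were called lower. Relative to all genes, the members' median thus lay within 0.06 of the typical gene under each scaling. Whether polysomal RNA as a whole was lower in Lck-/- was not tested.

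Within each genotype the members spread widely around the typical mRNA. Against 0, 12 of 19 members passed in Lck-/-, where 56.1% of all 8265 genes did, and 12 of 19 in WT, where 62.3% did. In Lck-/- 5 were above 0 and 7 below, against 26.9% and 29.2% of all genes, and in WT 6 were above and 6 below, against 33.5% and 28.8%. These tests share the loess zero. Most calls below 0 turn above 0 with no normalization and in the authors' deposited ratios. With median centring each of the 6 in WT does, but of the 7 in Lck-/- only Parp9 does. Ifi35, a modulator of innate signalling, had the highest ratios of the 19. They were 0.77, 1.16, 1.09 and 1.16 in the Lck-/- extracts, against 0.87, 0.77, 1.21 and 1.11 in the WT extracts, with means of 1.04 ± 0.10 (SE, adjusted p = 3.31e-05) and 0.99 ± 0.10 (adjusted p = 2.04e-05). All 8 extracts lay well above 0. Gbp2 had ratios of 0.24, 0.91, 0.86 and 0.75 in the Lck-/- extracts, against 0.63, 0.75, 0.38 and 0.69 in the WT extracts. Samhd1 had ratios of 0.24, 0.79, 0.01 and 0.22 in the Lck-/- extracts, against 0.57, 0.70, 0.66 and 0.59 in the WT extracts, and Bst2 had ratios of 0.35, 0.39, 0.36 and 0.24 in the Lck-/- extracts, against 0.42, 0.22, 0.35 and 0.40 in the WT extracts. These 3 and Igtp were above 0 in every extract and passed in both genotypes, though the Samhd1 mean in Lck-/- was 0.32 against 0.63 in WT. Parp14 passed above 0 in WT alone (mean of 0.48, with 0.14 in Lck-/-), and the difference between genotypes did not pass.

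Irf9 had the lowest ratios in both genotypes, with means of -0.67 ± 0.08 (SE, adjusted p = 0.000121) in Lck-/- and -0.94 ± 0.08 (adjusted p = 9.01e-06) in WT. Gbp4 had ratios of -0.69, -0.21, -0.58 and -0.42 in the Lck-/- extracts, against -0.62, -0.61, -0.48 and -0.70 in the WT extracts. Stat2 had ratios of -0.80, -0.46, -0.22 and -0.18 in the Lck-/- extracts, against -0.33, -0.36, -0.44 and -0.33 in the WT extracts. Both were below 0 in all 8 extracts. Isg20 had ratios of -0.67, -0.69, -0.20 and -0.06 in the Lck-/- extracts, against -0.33, -0.42, -0.53 and -0.17 in the WT extracts. Zbp1 had ratios of -0.64, -0.74, -0.17 and -0.05 in the Lck-/- extracts, against -0.16, -0.47, -0.22 and -0.58 in the WT extracts. Irgm1 had ratios of -0.47, -0.24, -0.23 and -0.14 in the Lck-/- extracts, against -0.50, -0.36, -0.50 and 0.00 in the WT extracts. These 3 were also below 0 in every extract but WT replicate 4 of Irgm1, which lay at the typical mRNA. All 6 genes passed below 0 in both genotypes, and Parp9 passed in Lck-/- alone, at -0.31 against 0.01 in WT. The guanylate-binding proteins thus stood on both sides, Gbp2 above and Gbp4 below the typical mRNA, as did the immunity-related GTPases Igtp and Irgm1. Ifi35, Gbp2, Igtp and Bst2 kept positive ratios in the authors' deposited table, under median centring and without normalization. Irf1, Ddx58, Isg15, Gbp3, Iigp1 and Lgals3bp passed in neither genotype, and Irf1 had ratios of -0.38, 0.31, -0.27 and -0.21 in the Lck-/- extracts, against -0.31, -0.11, -0.16 and -0.18 in the WT extracts.

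**Figure D4:**
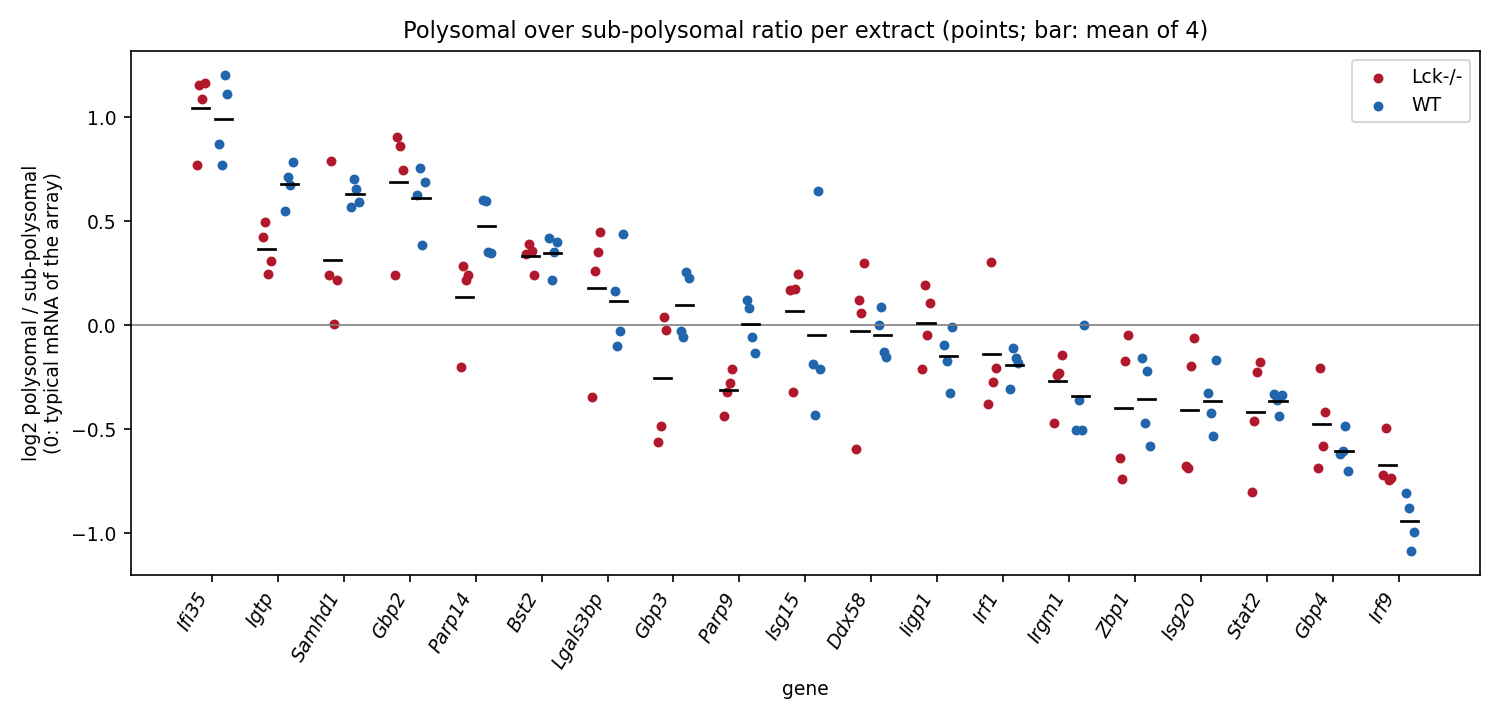
Log2 polysomal over sub-polysomal ratio of the 19 tested interferon response genes in each Lck-/- extract (red, left) and WT extract (blue, right), ordered by the WT mean, with bars at the mean of 4 and 0 at the typical mRNA of the array. Ifi35 is highest and Irf9 lowest in both genotypes, and no difference between genotypes passed.

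The wider pathway was read from a list of 71 further genes, chosen with earlier results of these data known. In the polysomal pool 6 of 56 tested were higher in Lck-/- and 1 lower, and in the sub-polysomal pool 8 of 54 were higher and 3 lower. The shares called were 12.5% and 20.4%, against 15.2% and 20.3% of all genes, so neither stood above the background. The ratio differed for 0 of 45 by limma, with 8 of 45 and 20.8% of all genes at an unadjusted p below 0.05. Their median difference was 0.10 in the polysomal and 0.01 in the sub-polysomal pool. Ifng, which encodes interferon gamma itself, averaged 12.82 ± 0.36 in Lck-/- and 11.85 ± 0.28 in WT in the polysomal pool (SD, n = 4 each). Its differences were 0.97 ± 0.21 (adjusted p = 0.0118) in the polysomal and 1.04 ± 0.21 (adjusted p = 0.00826) in the sub-polysomal pool. Ifngr1, a chain of its receptor, was higher by 0.74 ± 0.20 (adjusted p = 0.0291) and 0.80 ± 0.24 (adjusted p = 0.0368). The receptor genes Ifngr2, Ifnar1 and Ifnar2 passed in neither pool. Ifnb1 and Ifna4, type I interferons, were above background on at most 1 of 8 arrays of a genotype, and they are named here after their values were seen. Irf8, a member of the interferon regulatory factor family, was higher by 0.81 ± 0.18 (adjusted p = 0.013) and 0.49 ± 0.15 (adjusted p = 0.0443). The DNA sensor Cgas was higher by 0.77 ± 0.18 (adjusted p = 0.0156) and 0.71 ± 0.17 (adjusted p = 0.0159). Ticam1, an adaptor of Toll-like receptor 3, and Trim30a were higher in the sub-polysomal pool, by 0.55 ± 0.14 (adjusted p = 0.0197) and 0.50 ± 0.12 (adjusted p = 0.0152). Ifi27 was lower, at -0.67 ± 0.17 (adjusted p = 0.023) and -0.52 ± 0.16 (adjusted p = 0.0412), and the nuclear body protein Pml was lower in the sub-polysomal pool at -0.45 ± 0.11 (adjusted p = 0.018), read from a probe that shares a stretch with a Synm probe. Trim25, which modifies RIG-I, was higher in the polysomal pool by 1.31 ± 0.34 (adjusted p = 0.0265), but its probe shares stretches of 20 bases with probes of 76 other gene names. None of the 5 negative regulators tested, among them Socs1 and Ptpn2, passed in any of the 3 genotype comparisons.

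Markers of other cells that can carry interferon response transcripts were set beside these results. Of 10 myeloid and dendritic cell genes, Itgam, Csf1r, Cd74 and H2-Ab1 were above background on 7 or more of 8 arrays in both genotypes in both pools. H2-Aa was so on 3 to 7 of 8, Itgax, Cd14 and Flt3 on at most 4 of 8, and Lyz2 and Adgre1 on at most 2 of 8. The summed intensity of these 10 genes was 2814 to 3872 in Lck-/- and 4089 to 4811 in WT in the polysomal pool, and 3834 to 5576 in Lck-/- and 3969 to 10070 in WT in the sub-polysomal pool. The Itgam probe shares stretches with those of 72 other gene names. Without Itgam the polysomal sums were 2538 to 3259 in Lck-/- and 3343 to 3972 in WT. The sub-polysomal sums were then 2428 to 3697 in Lck-/- and 2918 to 4869 in WT. The most intense genes weigh most in a sum. H2-Ab1, the most intense of this list, averaged 10.04 in Lck-/- and 10.95 in WT on the log2 scale in the polysomal pool. Sums without H2-Ab1 were not computed, and other genes of the list had differences of both signs, given below. The sums are thus no measure of the list as a whole. The 5 B cell genes, of which Cd79b alone was above background on at least 6 arrays of each genotype, summed to 568 to 769 in Lck-/- and 602 to 693 in WT in the polysomal pool, where the genotypes overlapped, and to 768 to 931 in Lck-/- and 710 to 762 in WT in the sub-polysomal pool, where they did not. The 4 natural killer cell genes, of which Eomes alone passed that limit, summed to 1991 to 6052 in Lck-/- and 953 to 1469 in WT in the polysomal and to 1872 to 4463 in Lck-/- and 889 to 1374 in WT in the sub-polysomal pool, with no overlap in either. These sums mostly follow Eomes, whose mean log2 intensity was 10.60, against 6.77 to 7.38 for Ncr1, Klrb1c and Klra8. Sums without Eomes were not computed. Of the plasmacytoid dendritic cell list, Ccr9 and Ly6d, whose probes share no stretch with another gene's, summed to 296 to 474 in Lck-/- and 308 to 360 in WT in the polysomal and to 285 to 503 in Lck-/- and 263 to 345 in WT in the sub-polysomal pool. Neither Ccr9 nor Ly6d was above background on at least 6 arrays of each genotype in either pool, nor was any of the 5 stromal genes. The 5 stromal genes summed to 507 to 565 in Lck-/- and 557 to 609 in WT in the polysomal and to 519 to 553 in Lck-/- and 511 to 621 in WT in the sub-polysomal pool. H2-Ab1 was lower in Lck-/-, by -0.92 ± 0.17 (adjusted p = 0.00594) and -1.05 ± 0.18 (adjusted p = 0.00405). The other genes of the list that were tested did not pass and had both signs. Their polysomal differences were 0.45 ± 0.25 (adjusted p = 0.234) for Csf1r, 0.60 ± 0.24 (adjusted p = 0.106) for H2-Aa, -0.70 ± 0.24 (adjusted p = 0.0664) for Itgam and -0.30 ± 0.20 (adjusted p = 0.339) for Cd74. Siglech, of plasmacytoid dendritic cells, differed by 0.69 ± 0.20 (adjusted p = 0.0389) in the polysomal pool and -0.46 ± 0.15 (adjusted p = 0.0515) in the sub-polysomal pool, but its probe shares stretches with those of 3 other genes and the Itgam probe with those of 72. Eomes, listed for natural killer cells and also made by activated CD8 T cells, was higher in Lck-/- by 2.14 ± 0.35 (adjusted p = 0.0038) and 1.99 ± 0.32 (adjusted p = 0.00319), while Ncr1 and Klrb1c were above background on at most 4 of 8 arrays of a genotype. Klra8, the fourth gene of that list, was above background on 6 of 8 Lck-/- and 5 of 8 WT arrays in the polysomal pool and on 7 of 8 and 4 of 8 in the sub-polysomal pool, with differences of 0.28 ± 0.23 (adjusted p = 0.43) and 0.73 ± 0.26 (adjusted p = 0.0721). The part of other cells in the members' differences was not tested.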

How the data were processed

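The members and gene lists were chosen with earlier results of these data known. Per the file headers, each 2-colour array was read with Feature Extraction 10.7.3.1, and the deposited intensity values are the mean signal and local background of each spot, neither of them normalized, and the software's background-subtracted, dye-corrected signal. A further table holds the authors' deposited log2 ratios of the polysomal over the sub-polysomal pool for 4 columns per genotype, whose numbers were not matched to extracts. Per the submitters' processing notes limma was used. Its version and settings are not given in the sources used here.

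Mean signals were background-corrected with normexp (offset 50) and normalized by loess in limma 3.58.1 (R 4.3.3), and single-channel levels were scaled with Aquantile. Control spots and spots that the software marked as outliers were left out, and each gene was read from its brightest probe. Both arrays of an extract were averaged, giving 4 Lck-/- and 4 WT extracts. A gene was tested for a level where that channel was well above background on 6 of 8 arrays in either genotype, and for the ratio where both channels were so in both genotypes. Differences were tested with lmFit and eBayes, with Benjamini-Hochberg adjustment over all genes tested and a threshold of 0.05. The procedure was tested on simulated data. Per-extract values are given for each member called and, in each role group, for the brightest member and the measured one with the largest difference, and the others are given by range and counts. Of the further pathway genes, the 8 called with the smallest adjusted p are named. The receptor genes Ifngr1, Ifngr2, Ifnar1 and Ifnar2 are named after their values were seen. Alternatives covered background correction, normalization, filters, probes, dye, slide, pairing of arrays, the replicate number, each left-out extract and the authors' ratios. The number of arrays limits the precision, and levels are not compared between probes. Promoter sequences are from RefSeq, GRCm38.p6. Some genes of the pathway and marker lists are not reported here by name.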

Additional observations from a re-analysis of the deposited data

Results flagged for a closer look

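In 150 groups of 4 extracts (the tested members' levels and ratios in each genotype), 4 values stood apart from the other 3 by a gap above Dixon's critical value. Chance gives about 1 in 20 groups. Irf9 had a log2 ratio of -0.50 in Lck-/- replicate 2, with the other 3 Lck-/- extracts between -0.74 and -0.72. Isg15 had a log2 ratio of -0.32 in Lck-/- replicate 2, with the other 3 Lck-/- extracts between 0.17 and 0.25. Gbp3 had a polysomal log2 level of 9.18 in WT replicate 4, with the other 3 WT extracts between 9.83 and 9.93. Parp14 had a log2 ratio of -0.20 in Lck-/- replicate 1, with the other 3 Lck-/- extracts between 0.22 and 0.29.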

How the results depend on the processing

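All 37 members rest on 16 arrays, and their number limits the precision. The 8 members tested in no comparison and those that entered through 1 genotype lie near background. The alternatives below are those planned. Some used fewer extracts, arrays or genes, and the cause of each change was not tested. Leaving out 1 extract at a time, the count of members called was 0 to 1 for the ratio difference, 1 to 10 for the polysomal level, 3 to 10 for the sub-polysomal level, 9 to 12 for the ratio against 0 in Lck-/- and 10 to 13 for the ratio against 0 in WT, with the highest counts for both levels without Lck-/- replicate 1. Of all genes, 1.26% to 5.37% were then called for the ratio difference. The shares were 6.9% to 24.4% for the polysomal and 10.9% to 20.6% for the sub-polysomal level. For the ratio against 0 they were 45.6% to 59% in Lck-/- and 54.3% to 67.4% in WT. The 1 ratio call was Samhd1, without Lck-/- replicate 2. In what follows, brackets give the share of all genes called in the same setting. With median centring, the count was 12 (56.7%) for the ratio difference, 15 (40.2%) for the sub-polysomal level and 2 (31.6%) for the ratio against 0 in Lck-/-. With no normalization, the count was 16 (72.4%) for the ratio difference, 15 (36.3%) for the sub-polysomal level and 19 (92.4%) for the ratio against 0 in WT. With no scaling between arrays, the count was 3 (9.53%) for the sub-polysomal level. With no filter on dim probes, the count was 1 of 37 (5.39%) for the polysomal level. With a filter of all 8 arrays, the count was 1 of 22 (16.6%) for the polysomal level. With polysomal RNA in Cy5 alone, the count was 0 (1.36%) for the polysomal and 3 (7.78%) for the sub-polysomal level. It was then 3 (27.8%) for the ratio against 0 in Lck-/- and 5 (36.7%) in WT. With polysomal RNA in Cy3 alone, the count was 2 (4.97%) for the sub-polysomal level. With slide 1 alone, the count was 0 (1.44%) for the polysomal level and 5 (34.1%) for the ratio against 0 in Lck-/-. With slide 2 alone, the count was 6 (20.5%) for the polysomal and 1 (2.84%) for the sub-polysomal level. It was then 4 (37%) for the ratio against 0 in Lck-/- and 7 (47.1%) in WT. With slide and dye terms over 16 arrays, the count was 5 (17.9%) for the polysomal level. With exchanged dye swaps of WT replicates 1 and 2, the count was 0 (6.79%) for the polysomal level and 7 (46.2%) for the ratio against 0 in WT. With these extracts left out, the count was 0 (2.39%) for the polysomal level, 3 (11.4%) for the sub-polysomal level and 7 (44%) for the ratio against 0 in WT. With the authors' deposited table, the count was 18 (90.3%) for the ratio difference and 19 (96.2%) for the ratio against 0 in WT. Replicate numbers did not pair the genotypes (r of same-numbered extracts 0.06, -0.17, 0.26 and -0.24). With the replicate number as a block 0 members (2.2% of all genes) were called for the ratio, 4 (13.7%) for the polysomal level and 3 (11.9%) for the sub-polysomal level. Of all genes, 233 were higher and 87 lower for the ratio difference, against 73 and 104 with the scanner's processed signals, 32 and 4656 with median centring, 40 and 5940 with no normalization and 25 and 7427 with the authors' deposited table. Other counts were 164 and 41 with no filter on dim probes, 36 and 0 with polysomal RNA in Cy5 alone, 5 and 0 with polysomal RNA in Cy3 alone, 59 and 8 with slide 2 alone, 177 and 5 with the replicate number as a block, 41 and 0 with exchanged dye swaps of WT replicates 1 and 2 and 84 and 2 with these extracts left out. Of all genes, 615 were higher and 951 lower for the polysomal level, against 404 and 993 with the scanner's processed signals, 51 and 2155 with median centring and 59 and 2188 with no normalization. Other counts were 25 and 115 with polysomal RNA in Cy5 alone, 105 and 232 with polysomal RNA in Cy3 alone, 31 and 117 with slide 1 alone, 212 and 487 with exchanged dye swaps of WT replicates 1 and 2 and 44 and 202 with these extracts left out. Of all genes, 921 were higher and 1045 lower for the sub-polysomal level, against 3572 and 326 with median centring, 3213 and 312 with no normalization and 287 and 638 with no scaling between arrays. Other counts were 303 and 452 with polysomal RNA in Cy5 alone, 158 and 322 with polysomal RNA in Cy3 alone, 78 and 196 with slide 2 alone, 445 and 711 with the replicate number as a block, 459 and 649 with exchanged dye swaps of WT replicates 1 and 2 and 433 and 673 with these extracts left out. Of all genes, 2224 were higher and 2413 lower for the ratio against 0 in Lck-/-, against 2091 and 520 with median centring, 4689 and 348 with no normalization and 4691 and 285 with the authors' deposited table. Other counts were 1159 and 1135 with polysomal RNA in Cy5 alone, 1256 and 1560 with slide 1 alone and 1707 and 1332 with slide 2 alone. Of all genes, 2768 were higher and 2377 lower for the ratio against 0 in WT, against 6677 and 291 with median centring, 7437 and 200 with no normalization and 7815 and 123 with the authors' deposited table. Other counts were 1762 and 1267 with polysomal RNA in Cy5 alone. Signs turned with median centring for the ratio difference Irf1 (-1.05), Gbp2 (-0.95), Gbp4 (-0.77), Irgm1 (-0.94) and Lgals3bp (-0.73). They turned for the ratio against 0 in Lck-/- Parp9 (0.0086). They turned for the ratio against 0 in WT Stat2 (0.63), Irf9 (0.20), Zbp1 (0.70), Isg20 (0.35), Gbp4 (0.55) and Irgm1 (0.84). Signs turned with no normalization for the ratio difference Irf1 (-1.05), Irf9 (-0.60), Isg15 (-0.64), Gbp2 (-0.96), Gbp4 (-0.77), Irgm1 (-0.94), Ifi35 (-0.66) and Lgals3bp (-0.74). They turned for the ratio against 0 in Lck-/- Stat2 (0.24), Zbp1 (0.22), Isg20 (0.080), Gbp4 (0.061), Irgm1 (0.18) and Parp9 (0.29). They turned for the ratio against 0 in WT Stat2 (0.91), Irf9 (0.48), Zbp1 (0.98), Isg20 (0.63), Gbp4 (0.83) and Irgm1 (1.12). Signs turned with slide 2 alone for the ratio against 0 in WT Zbp1 (0.083) and Isg20 (0.014). Signs turned with the authors' deposited table for the ratio difference Irf1 (-1.43), Irf9 (-0.95), Isg15 (-1.20), Gbp2 (-1.37), Gbp4 (-1.16), Irgm1 (-1.29), Iigp1 (-0.73), Ifi35 (-1.05) and Lgals3bp (-1.13). They turned for the ratio against 0 in Lck-/- Stat2 (0.27), Zbp1 (0.23), Isg20 (0.18), Gbp4 (0.10), Irgm1 (0.23) and Parp9 (0.34). They turned for the ratio against 0 in WT Stat2 (1.36), Irf9 (0.87), Zbp1 (1.36), Isg20 (1.09), Gbp4 (1.26) and Irgm1 (1.52). Of the remaining values of single members, 1900 turned no called value and kept their side of the threshold, 179 lost a call and 79 gained one.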
